A study of Mus musculus with 15 samples.

Results

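Leukocyte adhesion molecules of endothelium were described in cultured bone marrow endothelial cells (BMECs) and in the cells grown beside them. The members were the 6 genes Sele, Selp, Icam1, Icam2, Vcam1 and Madcam1, chosen by symbol from the 44674 genes of the table, of which 5 had enough counts to be tested. All cultures came from mice that carried the Rosa26-tdTomato reporter. The mice were of 4 to 6 months by the study's methods, an age that its reporting summary gives for the majority of experiments. BMECs and lung ECs (endothelial cells) were from Tie2-CreERT2;Rosa26-tdTomato mice, in which tamoxifen activates a Cre driven by the Tek promoter, so tdTomato marks cells in which that promoter had been active. P0 Emcn+ and P0 Emcn- BMECs were tdTomato+ CD45- cells of whole bone marrow cultures in EGM-2 medium, sorted at day 14 for the presence or absence of endomucin (Emcn), a surface sialomucin. Emcn- BMECs were also collected at passages P1, P2, P3 and P4. Lung ECs were Emcn- cells of lung cultures by the study's text. MSC were mesenchymal stromal cells of the marrow of Osx-Cre;Rosa26-tdTomato mice, where Cre is driven by the promoter of an osteolineage gene. They were grown in MesenCult medium, so in comparisons of BMECs with MSC the medium and the cell type cannot be told apart. P4 had 1 library and each of the other 7 conditions had 2, and by the study's reporting summary replicates were independent biological samples, while the labels tie no library to an animal.

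Leukocytes leave the blood in steps. Selectins on the endothelium (E-selectin, gene Sele, and P-selectin, gene Selp) let them roll, and the immunoglobulin-type molecules ICAM-1, ICAM-2 and VCAM-1 then hold them by binding leukocyte integrins. In most vascular beds E-selectin, ICAM-1 and VCAM-1 are induced by inflammatory cytokines through NF-kB, P-selectin is also stored in Weibel-Palade bodies, and ICAM-2 is made without stimulation. Sinusoidal endothelium of the marrow is known to express E-selectin, P-selectin and VCAM-1 without inflammation, and blood-forming stem cells home through it. VCAM-1 is also made by marrow stromal cells and macrophages, P-selectin by platelets, and MAdCAM-1 by venules of the gut.

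Library totals ran from 9914620 to 39718807 counts, and a count of 0 allows up to 0.0755 to 0.303 CPM (counts scaled by the library total) in a library, a limit that covers counting error only. The cell types were checked against 8 endothelial, 7 mesenchymal stromal, 9 macrophage and 5 megakaryocyte and platelet markers. The 8 endothelial markers summed to 11956 and 9926 CPM for P0 Emcn+ BMECs, against 259 and 68.9 CPM for P0 Emcn- BMECs, 44.2 to 70.1 CPM over P1 to P4, 153 and 566 CPM for lung, and 35.4 and 327 CPM for MSC. The mesenchymal markers ran the other way, with 359 and 614 CPM for P0 Emcn+ and 2855 to 16610 CPM in every other library. The libraries labelled Emcn- BMECs and lung ECs therefore went against their endothelial label by these markers. Emcn itself was at 630.9 and 797.7 CPM in P0 Emcn+, 12.7 and 2.52 CPM for P0 Emcn- libraries, and 32.6 and 124.6 CPM in lung. The lung libraries thus held more Emcn RNA than any Emcn- BMEC library and less than P0 Emcn+. By RNA this goes against their description as Emcn- cells, although in the study Emcn status was read from antibody staining, a different measure. The difference from P0 Emcn- did not pass (log2 value 3.33, SE 1.25, adjusted p = 0.184). By the grouping used here, the libraries of P0 and lung formed batches d (replicate 1) and a (replicate 2). The passaged and MSC libraries formed batches b and c, so between these sets batch and condition cannot be told apart. The sample titles name only condition and replicate number.

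Sele and Selp lie on the plus strand of chromosome 1 in GRCm38. Sele (ENSMUSG00000026582) spans chr1:164048234-164057677 and Selp (ENSMUSG00000026580) chr1:164115264-164150026. Icam1 (ENSMUSG00000037405) lies at chr9:21015985-21028817 on the plus strand, Icam2 (ENSMUSG00000001029) at chr11:106377656-106388075 and Vcam1 (ENSMUSG00000027962) at chr3:116109949-116129688, both on the minus strand, and Madcam1 (ENSMUSG00000020310) at chr10:79664559-79668537 on the plus strand. Antisense or opposite-strand transcripts overlap Icam1, Selp and Vcam1, and whether counting used strand is not given in the sources used here. The overlapping genes present in the table had 4 and 11 counts (Selp) and 45 counts (Vcam1) over all 15 libraries, against 3471 counts of Selp and 123107 of Vcam1.

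Promoters of Sele, Selp and Icam1 are shown because these 3 genes differed together between the replicates of both P0 Emcn+ and lung, as given with the replicate ratios. RefSeq sequences of GRCm38.p6 matched 4 of the 6 members. Each runs from 250 bases before to 50 bases after the RefSeq start. For Sele and Selp this is the start given above, while the RefSeq start of Icam1, chr9:21015940, lies 45 bases upstream of the GENCODE start given above. Capitals mark exact matches on either strand to an AP-1 motif (TGANTCA) or a TATA box (TATAAA).
Sele, chr1:164047984-164048283, plus strand: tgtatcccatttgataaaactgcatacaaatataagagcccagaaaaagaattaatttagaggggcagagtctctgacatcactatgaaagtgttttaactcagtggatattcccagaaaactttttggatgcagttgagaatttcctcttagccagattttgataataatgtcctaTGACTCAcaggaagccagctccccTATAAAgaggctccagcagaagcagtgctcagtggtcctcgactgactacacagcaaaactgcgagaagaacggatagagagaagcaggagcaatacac
Selp, chr1:164115014-164115313, plus strand: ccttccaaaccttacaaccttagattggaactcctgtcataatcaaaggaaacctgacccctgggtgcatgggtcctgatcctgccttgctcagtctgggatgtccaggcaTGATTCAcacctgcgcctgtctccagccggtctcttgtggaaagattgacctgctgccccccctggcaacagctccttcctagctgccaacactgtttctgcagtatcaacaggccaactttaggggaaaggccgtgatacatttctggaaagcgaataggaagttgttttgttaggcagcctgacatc
Icam1, chr9:21015690-21015989, plus strand: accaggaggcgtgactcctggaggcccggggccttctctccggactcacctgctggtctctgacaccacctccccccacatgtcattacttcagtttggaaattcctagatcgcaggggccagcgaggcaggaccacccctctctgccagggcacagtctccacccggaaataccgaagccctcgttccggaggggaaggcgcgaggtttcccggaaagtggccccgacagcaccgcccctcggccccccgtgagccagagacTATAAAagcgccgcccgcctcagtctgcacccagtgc
The Sele window held an AP-1 match at -73 and a TATA box match at -49, and the Selp window an AP-1 match at -139. The Icam1 window held a TATA box match at +14 from the RefSeq start, which is -32 from the GENCODE start. Of 27025 promoters of this length, 7.93% held the AP-1 motif and 14.2% the TATA box. One NF-kB consensus was searched, GGGRNNYYCC (R for A or G, Y for C or T, N for any base), and 8.18% of promoters held it. It had no exact match in these 3 windows and 2 matches in that of Madcam1, at -83 and -70. Sequences that depart from these letters were not searched, so no match does not mean that a site is absent. A match is a description of letters and not a site of binding.

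Sele and Selp were high in P0 Emcn+ BMECs and in lung cultures and near the detection limit in P0 Emcn- BMECs. For Sele the P0 Emcn+ libraries held 1.39 and 6.26 CPM (44 and 162 counts), the lung libraries 0.746 and 3.87 CPM, and the P0 Emcn- libraries 0.0504 and 0 CPM (2 and 0 counts). Selp stood at 12.5 and 61.4 CPM for P0 Emcn+, against 7.65 and 52.1 CPM for lung and only 0.327 and 0.101 CPM for P0 Emcn- (13 counts and 1 count). For both selectins every P0 Emcn+ and lung library lay above every other library of the series, while P0 Emcn+ and lung overlapped with each other. The passaged Emcn- BMECs held 0.0297 to 0.452 CPM of Sele and 0 to 0.251 CPM of Selp. MSC held 0.0281 and 0.609 CPM of Sele and 0.281 and 0.944 CPM of Selp.

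Icam2, which encodes a constitutive endothelial ligand of the integrin LFA-1, was high in P0 Emcn+ BMECs alone. There it stood at 140.7 and 134.9 CPM, while P0 Emcn- BMECs held 3.47 and 0.202 CPM, lung 1.77 and 4.93 CPM, and MSC 0.140 and 3.65 CPM. From P1 to P4 it lay between 0.0370 and 0.198 CPM, with 1 to 7 counts a library. The replicates of P0 Emcn- and of MSC stood far apart, and both groups overlapped with lung.

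Icam1 and Vcam1, the inducible ligands of the beta2 and alpha4 integrins of leukocytes, were well above the detection limit in all 15 libraries. For Icam1 the P0 Emcn+ libraries held 35.1 and 110.6 CPM and the P0 Emcn- libraries 64.5 and 61.9 CPM, while lung held 72 and 161.6 CPM and MSC 24.1 and 45.6 CPM. Its highest condition mean, 142.7 CPM in the only P4 library, was 4.10 times its lowest, in MSC. For Vcam1 the P0 Emcn+ libraries held 232.9 and 545.5 CPM and the P0 Emcn- libraries 161.6 and 180.4 CPM, while lung held 523.6 and 519.4 CPM and MSC 275.4 and 338.1 CPM. Its condition means spanned 3.67-fold, from 142.2 CPM in P1 to 521.5 CPM in lung. In bulk samples a lower level can come from fewer cells of a type or from less RNA per cell, and these cannot be told apart.

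Madcam1, the mucosal vascular addressin, had 9 counts over the series, with 6 of 15 libraries above 0 and at most 3 counts in a library. It was left out by the filter and is given no fold.

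**Figure D1:**
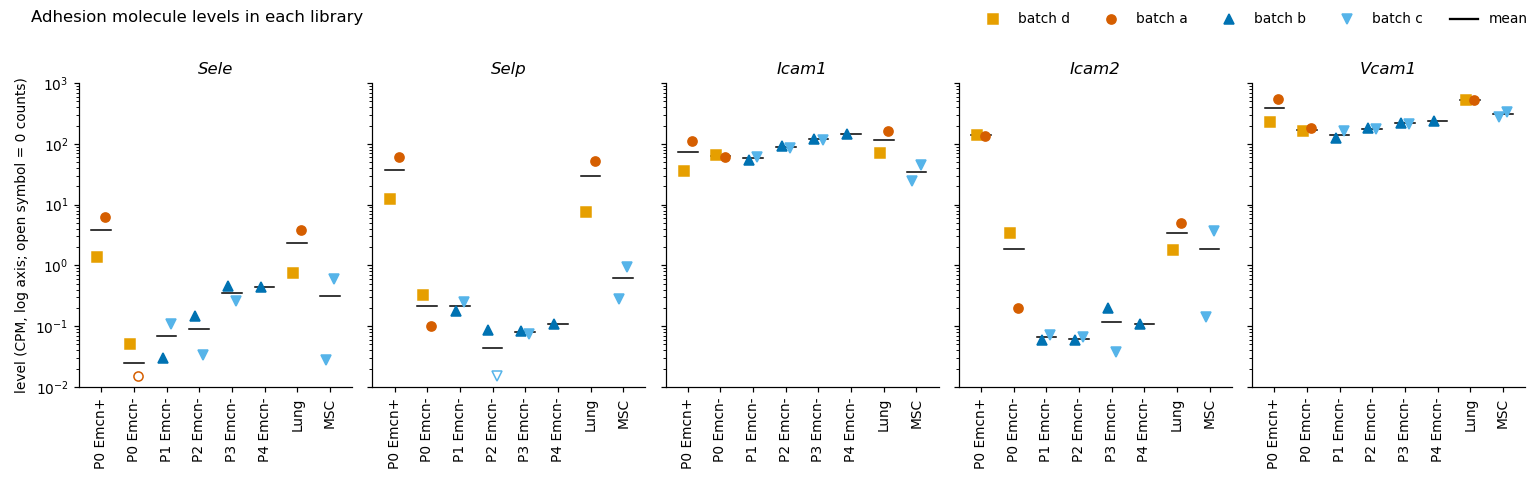
CPM on a log axis of the 5 members that passed the filter in each of the 15 libraries, by condition, with symbols for the 4 batches, bars at condition means and open symbols for 0 counts. Sele and Selp are high in P0 Emcn+ and lung, Icam2 in P0 Emcn+, and Icam1 and Vcam1 are at 24.1 CPM or more in every library.

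Ordered by condition mean, neighbouring conditions often overlapped in their libraries. Sele ran from P0 Emcn+ over lung, P4, P3, MSC, P2 and P1 to P0 Emcn-, and the gap between lung and P4 was the only one without overlap. Selp ran from P0 Emcn+ over lung to MSC, P1, P0 Emcn-, P4, P3 and P2. It had gaps between lung and MSC, MSC and P1, and P4 and P3. The gap between MSC and P1 was 10 counts in MSC replicate 1 against 7 in P1 replicate 2. That between P4 and P3 was 4 counts against 3 and 2. Icam2 ran from P0 Emcn+ over lung, MSC and P0 Emcn- to the passaged cells, with gaps below P0 Emcn+, below P0 Emcn- and between P4 and P1. The gap below P0 Emcn- was 0.202 CPM (2 counts) against 0.198 CPM in P3 replicate 1 (7 counts). That between P4 and P1 was 4 counts against 2 in each P1 library. Icam1 ran from P4 over P3, lung, P2, P0 Emcn+, P0 Emcn- and P1 to MSC, and its order had gaps between P4 and P3, P0 Emcn- and P1, and P1 and MSC. Between P0 Emcn- and P1 the nearest libraries stood at 61.9 and 61.2 CPM. Vcam1 ran from lung over P0 Emcn+, MSC, P4, P3, P2 and P0 Emcn- to P1. Lung, P0 Emcn+ and MSC overlapped in that order, as did P2 and P0 Emcn-. The nearest libraries of P0 Emcn- and P1 stood at 161.6 and 160.7 CPM.

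Levels were also divided by the joined length of all annotated exons of a gene, 8870 bases for Vcam1 and 1904 bases for Icam2. This length can exceed that of any single transcript, so the order of members given here depends on it. In P0 Emcn+ the replicates of Vcam1 stood at 26.3 and 61.5 CPM per kb. In P0 Emcn+ BMECs the mean level was 72.4 CPM per kb for Icam2, 43.9 for Vcam1, 16.7 for Icam1, 8.38 for Selp and 1.31 for Sele. In lung it was 58.8 CPM per kb for Vcam1, 26.8 for Icam1, 6.76 for Selp, 1.76 for Icam2 and 0.793 for Sele. Vcam1 led Icam1 in MSC as well, with 34.6 against 7.98 CPM per kb.

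The first comparison asked how the adhesion molecules differ between the Emcn+ and Emcn- BMECs of the same kind of culture. Both selectins and Icam2 rose in P0 Emcn+ BMECs, and Icam1 showed no direction shared by the replicates. A call took an adjusted p under 0.05 (edgeR quasi-likelihood test, Benjamini-Hochberg) together with a log2 fold change beyond 1.5 in either direction. By this rule 3 of the 5 tested members were higher in P0 Emcn+, while 7.79% of the 19401 tested genes were called higher. The libraries of the groups did not overlap for 4 of the 5, all higher in P0 Emcn+, beside 27.8% of genes. Selp had a log2 fold change of 7.13 (SE 1.25, adjusted p = 0.00155) and Icam2 one of 6.03 (SE 1.21, adjusted p = 0.00339). For Sele the counts gave a ratio of 89.0 with a 95% counting interval of 24.3 to 739.9, and the fitted log2 value of 6.50 (SE 1.61, adjusted p = 0.0106) depends on the prior count. Leaving out any of P0 Emcn+ replicate 2, P0 Emcn- replicate 2 and P0 Emcn- replicate 1 ended the Sele call, with adjusted p-values of 0.0518, 0.0505 and 0.0655.

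Vcam1 was higher in P0 Emcn+ by a log2 value of 1.22 (SE 0.31, adjusted p = 0.0121), below the fold limit, and was called without P0 Emcn+ replicate 1 (log2 fold change 1.72). It was 0.50 without P0 Emcn+ replicate 2 (adjusted p = 0.0775), and its adjusted p was 0.0581 without P0 Emcn- replicate 1 and 0.108 with only the compared groups. Within batches its ratio of P0 Emcn+ to P0 Emcn- was 1.44 in batch d and 3.02 in batch a. The Icam1 ratio was 0.545 in batch d and 1.79 in batch a, on opposite sides of 1, and its fitted log2 difference was 0.23 (SE 0.49, adjusted p = 0.777). With the replicate block it was -0.025 (adjusted p = 0.998). Macrophage markers summed to 642 and 601 CPM for the P0 Emcn+ libraries and to 252 and 316 CPM for the P0 Emcn- libraries, with 9 of 9 markers above 0 in each of these libraries, and their part in the Vcam1 difference was not tested. Megakaryocyte and platelet markers summed to 3.93 and 3.67 CPM for P0 Emcn+ libraries and to 5.39 and 7.06 CPM for P0 Emcn- libraries. Among them Itga2b, at 1.58 and 1.08 CPM against 4.71 and 5.35 CPM, fell in P0 Emcn+ (log2 fold change -1.87). Pf4 was at 1.62 and 2.16 CPM against 0.529 and 1.21 CPM and Gp1ba at 0.729 and 0.386 CPM against 0.0252 and 0 CPM, higher in P0 Emcn+, neither of them called, and Ppbp was at 0 in both P0 Emcn+ libraries. The part of these markers in the Selp difference was not tested.

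Genes that act with the adhesion molecules were called in the same comparison as follows, beside 7.79% of all tested genes called higher and 11.4% called lower. Of 10 tested genes of junctions and transmigration, 5 rose and 0 fell in P0 Emcn+, among them Pecam1, which encodes the junctional molecule CD31 (log2 fold change 6.48), and Cdh5, which encodes VE-cadherin (6.51). Of 7 enzymes of selectin ligand glycosylation 4 rose, including B3gnt3 (3.73) and the sulfotransferase gene Chst2 (2.15). Of 7 selectin ligand scaffolds 3 rose, Emcn itself, by which the cells were sorted, and Cd34 (2.34) and Podxl, while Cd44, which encodes a hyaluronan receptor, fell (-2.90). Of 8 linkers that dock adhesion molecules to actin 3 rose, including the moesin gene Msn (2.21). Of 6 Weibel-Palade genes 2 rose and 0 fell. Of 7 regulators 4 rose, including the ETS factor gene Erg (6.16). Of 17 receptor and signalling genes of TNF, IL-1 and NF-kB 0 rose and 1 fell, the IL-1 receptor gene Il1r1 (-3.20). Of 9 other cytokine-induced genes 2 rose, Ccl2 (2.41) and Traf1 (5.06), and 3 fell, Cx3cl1 (-2.33), Cxcl1 (-1.91) and Il6 (-3.06). Podxl, Traf1, Cxcl1 and Il6 were named after their values were seen. The median log2 fold change over all tested genes was -0.06.

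The lung cultures held selectins and Vcam1 at levels that overlapped those of P0 Emcn+ BMECs, with far less Icam2. Against P0 Emcn- BMECs, the same 2 libraries as in the first comparison, Selp (log2 fold change 6.85, SE 1.24, adjusted p = 0.0122) and Vcam1 (1.68, SE 0.31, adjusted p = 0.0140) were called higher, 2 of the 5 tested members beside 2.13% of all genes. The libraries did not overlap for 4 of the 5, all higher in lung (Icam2 overlapped), beside 17.0% of genes. Sele had a counting ratio of 47.6 (95% interval 12.9 to 397.7) and an adjusted p of 0.0721, and it was called by DESeq2 (adjusted p = 0.00580). Both calls were lost when the fit held only the compared groups (adjusted p = 0.0896 for Selp and 0.0588 for Vcam1). They were also lost without P0 Emcn- replicate 1 (0.0799 and 0.0784) or replicate 2 (0.0577 and 0.0505), and that of Vcam1 without lung replicate 1 (0.0598). Icam1 differed by a log2 value of 0.94 (SE 0.49, adjusted p = 0.357) and Icam2 by 0.67 (SE 1.06, adjusted p = 0.825).

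Against P0 Emcn+ BMECs, which serve in this comparison and in the first, Icam2 was lower in lung (log2 fold change -5.36, SE 1.17, adjusted p = 0.00491), beside 8.48% of genes called lower. Its ratio of lung to P0 Emcn+ was 0.0126 in batch d and 0.0366 in batch a. The other members were not called, at -0.72 for Sele (SE 1.05), -0.29 for Selp (SE 0.87), 0.71 for Icam1 (SE 0.49) and 0.46 for Vcam1 (SE 0.31). Without P0 Emcn+ replicate 2 Icam1 was called higher in lung (log2 fold change 1.74, adjusted p = 0.0209). Macrophage markers summed to 20.8 and 19.0 CPM in lung, below P0 Emcn- and P0 Emcn+, and their part in the Vcam1 levels was not tested. Against P0 Emcn-, 2.13% of all tested genes were called higher in lung and 1.70% lower, and the gene lists ran as follows. Of the Weibel-Palade genes Vwf rose in lung (log2 fold change 5.07), the only 1 of 6 called. It encodes the multimer stored with P-selectin. Gata2 (2.55) and Nr2f2 (1.64), whose product COUP-TFII marks venous endothelium, were the 2 of 7 regulators called higher. Of 7 glycosylation genes Gcnt1, which encodes a core-2 branching enzyme, was the only 1 called (3.08). Of 10 junction and transmigration genes 1 rose and 0 fell, and of 9 other cytokine-induced genes 0 rose and 1 fell. None was called of 17 TNF, IL-1 and NF-kB genes, 8 linkers and 7 scaffolds. Against P0 Emcn+, 1 of 7 regulators was called higher in lung (Nr2f2) and 2 lower, beside 12.6% of all genes higher and 8.48% lower. In that comparison 2 of 6 Weibel-Palade genes were called higher in lung, Vwf among them, and 2 lower. Vwf, Gata2 and Gcnt1 were named after their values were seen.

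**Figure D2:**
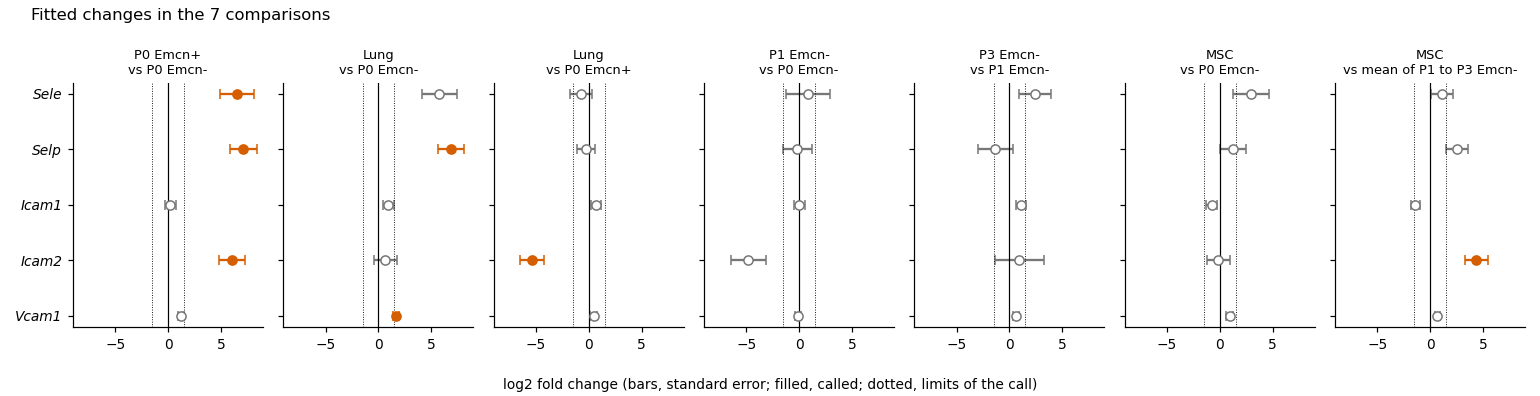
Fitted log2 fold changes (points) with standard errors (bars) of the 5 tested members in the 7 comparisons, filled where called, with dotted lines at the fold limits of 1.5. Selp, Sele and Icam2 are called in the first panel, Selp and Vcam1 in the second, and Icam2 in the third (lower) and the last.

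Beside Cdh5, which encodes the VE-cadherin of endothelial junctions, Icam2 counts kept to a narrow range of proportions and Selp counts did not. In the 6 libraries with at least 1432 Cdh5 counts, Icam2 counts were 2.26% and 2.64% of Cdh5 counts in P0 Emcn+, 2.91% in P0 Emcn- replicate 1, 4.47% and 2.88% in lung and 2.34% in MSC replicate 2. Over these libraries Cdh5 itself ran from 39.5 to 6222 CPM. Selp counts were 0.201% and 1.20% of Cdh5 counts in P0 Emcn+, 0.274% in P0 Emcn- replicate 1 and 0.605% in MSC replicate 2, but 19.3% and 30.4% in lung. These proportions are descriptions with no test, and the libraries with few Cdh5 counts (2 to 280) give no stable proportion.

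**Figure D3:**
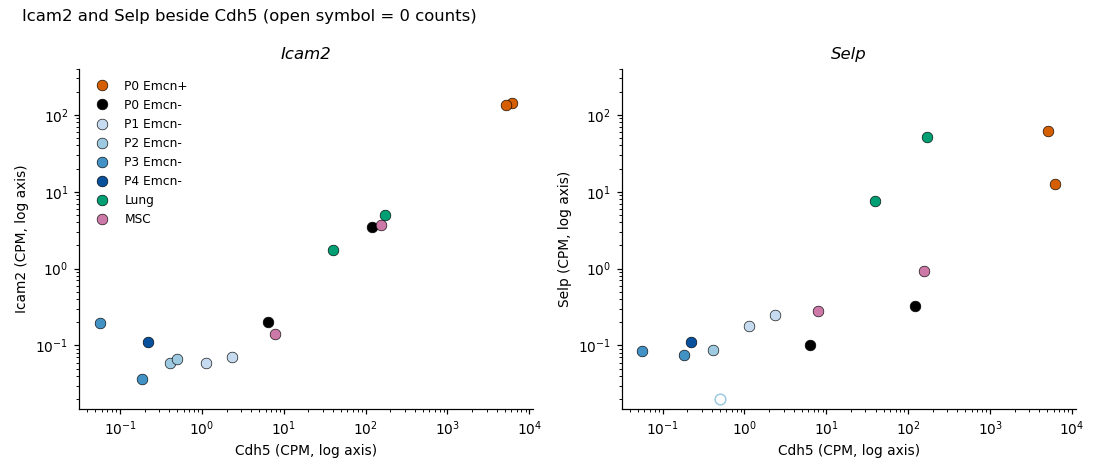
Icam2 (left) and Selp (right) against Cdh5, each in CPM on log axes, 1 point per library coloured by condition, with an open symbol for 0 counts. Icam2 follows Cdh5 where Cdh5 is above 5 CPM, while the 2 lung libraries stand above the other libraries of like Cdh5 in Selp.

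Replicate 2 held more Sele, Selp and Icam1 than replicate 1 in both P0 Emcn+ and lung. In P0 Emcn+ the CPM of replicate 2 was 4.49 times that of replicate 1 for Sele, 4.91 times for Selp, 3.15 times for Icam1, 2.34 times for Vcam1 and 0.959 times for Icam2. In lung the ratios were 5.19 for Sele, 6.81 for Selp, 2.24 for Icam1, 0.992 for Vcam1 and 2.79 for Icam2. In P0 Emcn- the ratio was 0.960 for Icam1 and 1.12 for Vcam1. There it was 0.308 for Selp (13 counts and 1 count, 95% counting interval 0.00725 to 2.05) and 0.0581 for Icam2 (138 and 2 counts, interval 0.00696 to 0.214). A ratio above 2 in both P0 Emcn+ and lung was found for 3 of the 5 tested members and for 1.75% of all tested genes. Replicate and batch are the same here, so an effect of the batch and a difference between cultures cannot be told apart.

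A ratio above 2 in both conditions was found for 0 of 17 TNF, IL-1 and NF-kB genes and 0 of 9 other cytokine-induced genes (beside 1.75% of all tested genes), too few to be read as below that share. Members of these lists went in different directions. Cx3cl1 (3.07 in P0 Emcn+ and 1.74 in lung) and Il1r1 (3.16 and 1.42) were higher in replicate 2 of both conditions. In lung, replicate 2 was the lower one for Ccl2 (2.00 in P0 Emcn+ and 0.873 in lung), Irf1 (1.01 and 0.608) and Nfkbia (1.30 and 0.992). A ratio above 2 in both was found for 2 of 6 Weibel-Palade genes, Edn1, which encodes endothelin-1, and Rab27a, named after its values were seen. Endothelial markers summed higher in lung replicate 2 than in replicate 1 (566 and 153 CPM), and lower in P0 Emcn+ replicate 2 than in replicate 1 (9926 and 11956 CPM). Their part in the ratios was not tested.

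**Figure D4:**
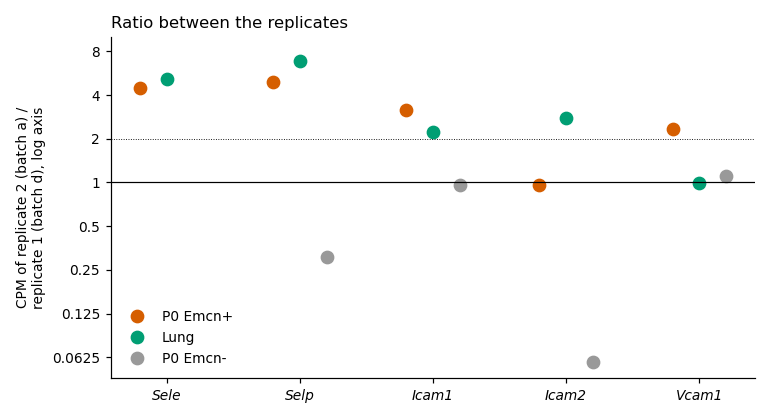
Ratio of CPM in replicate 2 (batch a) to replicate 1 (batch d) on a log axis for the 5 tested members in P0 Emcn+, lung and P0 Emcn-, with lines at 1 and 2, and no point for Sele in P0 Emcn- (2 and 0 counts). Sele, Selp and Icam1 lie above 2 in both P0 Emcn+ and lung, while in P0 Emcn- Icam1 lies at 0.960, Selp at 0.308 and Icam2 at 0.0581.

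The passage series asked how Emcn- BMECs change on serial culture. Between P0 and P1 no member was called by edgeR, beside 8.84% of all genes. Icam2 was the 1 of 5 at an unadjusted p under 0.05 and the 1 of 5 called by DESeq2. The shares of all genes under those rules are not given here, so these counts cannot be set beside them. Icam2 counted 138 and 2 in the P0 Emcn- libraries and 2 in each P1 library, a log2 difference of -4.81 (SE 1.65, adjusted p = 0.0692), and DESeq2 gave -4.66 (adjusted p = 0.0201). Without P0 Emcn- replicate 1, which held 138 of the 140 counts, it was -1.42 (adjusted p = 0.833). It was called without P0 Emcn- replicate 2 (adjusted p = 0.0336) and without either MSC library (0.0250 and 0.0247). Icam1 and Vcam1 were at 54.8 and 61.2 CPM and at 123.6 and 160.7 CPM in P1, below both P0 Emcn- libraries, as was Icam2. A lower level in P1 without overlap was found for 35.3% of all tested genes. After TMM scaling the libraries of Icam1 and Vcam1 overlapped. Icam1 then stood at 57.3 and 62.0 CPM in P1 against 59.7 and 57.0 CPM in P0 Emcn-. Vcam1 stood at 129.2 and 162.9 CPM against 149.6 and 166.2 CPM. The log2 differences of Icam1 and Vcam1 were 0.03 (SE 0.49) and -0.11 (SE 0.31), and TMM scaling placed Icam1 on the other side of 0 from its CPM. Of the 9 other cytokine-induced genes 0 rose and 3 fell at this step, beside 5.77% of all genes higher and 3.07% lower, Ccl2 (-3.93), Cxcl1 (-6.18) and Il6 (-6.99).

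From P1 to P4 Icam1 and Vcam1 went up at each passage in both batches. Icam1 went from 54.8 over 93.5 and 121.1 to 142.7 CPM in batch b and from 61.2 over 86.2 to 117.2 CPM in batch c, which ends at P3. Vcam1 went from 123.6 over 181.5 and 218.2 to 235.8 CPM in batch b and from 160.7 over 176 to 215 CPM in batch c. A gain at every step in both batches was found for 2 of the 5 tested members and for 4.65% of tested genes. Fitted as a linear change over the 7 libraries with a batch term, a test chosen after seeing the data, Icam1 rose by a log2 value of 0.47 per passage (SE 0.05, adjusted p = 0.00501) and Vcam1 by 0.29 (SE 0.05, adjusted p = 0.00924). In this fit 10.9% of 17502 genes rose and 10.2% fell. The Vcam1 slope did not pass without P1 replicate 1 (0.21, adjusted p = 0.0820). The labels do not say whether the passages of a batch are the same cells carried on.

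P3 set against P1 in the fit of all conditions called no member, beside 0.222% of all genes. DESeq2 called 0 members, beside 303 of all genes. At an unadjusted p under 0.05 there were 0 of 5, and the share of all genes at that limit is not given here. The log2 differences were 1.08 for Icam1 (SE 0.49, adjusted p = 0.376) and 0.65 for Vcam1 (SE 0.31, adjusted p = 0.398). Sele counts were 1, 5, 16 and 16 in batch b from P1 to P4 and 3, 1 and 7 in batch c, with a slope of 0.99 per passage (SE 0.31, adjusted p = 0.0589). Selp held 0 to 7 counts in each passaged library.

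Other genes of the pathway gave mixed directions over passages. Of 17 TNF, IL-1 and NF-kB genes 0 rose and 0 fell in the linear fit. Of 8 other cytokine-induced genes 2 rose, Cxcl1 (0.80 per passage) and Cx3cl1 (0.43), and 1 fell, Irf1 (-0.14). Macrophage markers fell in 9 of 9 cases (median -1.84 per passage), their sum going from 79.1 and 259 CPM at P1 to 16.1 and 11.3 CPM at P3 and 8.88 CPM at P4. Mesenchymal markers had 0 rising and 3 falling of 7. The part of these markers in the Icam1 and Vcam1 slopes was not tested.

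**Figure D5:**
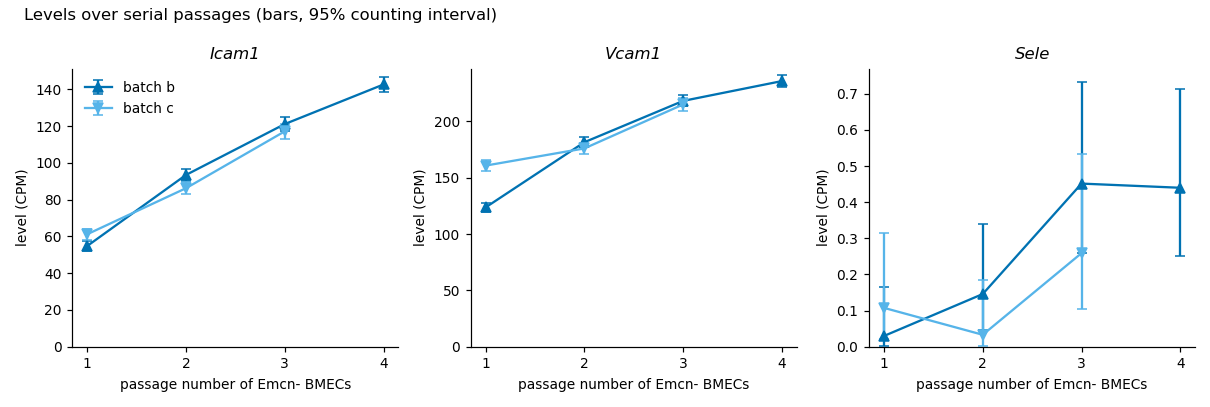
CPM of Icam1, Vcam1 and Sele in Emcn- BMECs against passage number, a line per batch, with exact 95% counting intervals as bars. Icam1 and Vcam1 are higher at every step in both batches, and the intervals of Sele, at 16 counts or fewer, overlap between most passages.

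The comparison with MSC asked whether the levels in Emcn- BMECs differ from those in stromal cells of the marrow. Against P0 Emcn- BMECs no member was called, beside 18.7% of all genes. At an unadjusted p under 0.05 there was 1 of 5, and DESeq2 called 0, but the shares of all genes under those rules are not given here. Vcam1 was higher in MSC by a log2 value of 0.93 (SE 0.31, adjusted p = 0.0387), below the fold limit, and Icam1 differed by -0.78 (SE 0.49, adjusted p = 0.237). Against the mean of P1 to P3, Icam2 was called higher in MSC (4.37, SE 1.09, adjusted p = 0.0123), 1 of 5 members beside 8.42% of genes, although the libraries of the groups overlapped. This call rested on MSC replicate 2, where endothelial markers summed to 327 CPM against 35.4 CPM in replicate 1, and without it the value was 0.71 (adjusted p = 0.813). With the replicate block it was 4.85 (adjusted p = 0.0562), but both MSC libraries are of batch c, so that fit pairs none of them and places MSC by how batches b and c differed among passaged cells. Icam1 was lower in MSC by -1.40 (SE 0.43, adjusted p = 0.0326) and Vcam1 higher by 0.70 (SE 0.24, adjusted p = 0.0476), both within the fold limit. Selp differed by 2.55 (SE 1.04, adjusted p = 0.0867), and DESeq2 called it (adjusted p = 0.0121).

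Over the 8 condition means, the genes most like each member were named by Pearson's r of log2(CPM + 1), among 11304 genes that reached 10 CPM in at least 1 condition. These values share libraries and depth and are descriptions. Selp was nearest to Hoxb2 (r = 0.985), Khdrbs3 (0.980) and Hoxb5 (0.977). Icam2 was nearest to Sox17 (0.997), which encodes an endothelial transcription factor, Mfng (0.997), which encodes a glycosyltransferase of Notch receptors, and Scarf1 (0.997), which encodes a scavenger receptor. Icam1 was nearest to Mfge8 (0.973), Ccnd3 (0.972) and Clcn7 (0.960), and Vcam1 to Bcam (0.962), Scarb2 (0.962) and Golga7 (0.959). Among the members themselves r was 0.851 for Selp and Vcam1, 0.819 for Icam2 and Selp, 0.145 for Icam1 and Vcam1 and -0.17 for Icam1 and Icam2. Sele did not reach 10 CPM and was not ranked.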

How the data were processed

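Bulk RNA-seq (total RNA, KAPA RNA HyperPrep) was analysed for 15 libraries in 8 conditions, grouped by the labels. By the study's methods, trimmed reads were mapped by STAR to GRCm38, quantified by Salmon and summed to genes through tximport. The authors deposited counts as whole numbers that are not normalized, and how these were rounded is not given in the sources used here. A blank symbol occurred for 8 rows, none of them a member.

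CPM was computed from column totals. The quasi-likelihood test of edgeR 4.0.16 (R 4.3.3) was fitted to all libraries after TMM scaling, with 1 coefficient per condition. Genes were kept by filterByExpr at a minimum count of 10 and a minimum total of 15. The fit had 7 residual degrees of freedom. A call took a log2 fold change beyond 1.5 in either direction and a p of less than 0.05 after Benjamini-Hochberg adjustment. Counting intervals are exact 95% intervals. With 1 to 3 counts in a group, a ratio is given with its interval. Same-numbered libraries share a batch, by the grouping used here, within P0 and lung and within the passages. The study's methods name different sequencer models for different batches of replicates. How these relate to batches a to d is not stated here. Their deviations from group means correlated by 0.139 to 0.209 in the former and 0.354 to 0.451 in the latter. Replicates differed by more than counting noise in every replicated condition (chi-square per degree of freedom 42.5 to 140.5). Scripts were tested on simulated counts. Alternatives were DESeq2 1.42.0, RLE factors, no filter, a filter of 50 counts in 2 libraries, a replicate block, only the compared groups, no fold limit, and each library left out. The linear passage fit (4 residual degrees of freedom) was added after seeing the data.

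The members and gene lists were chosen with earlier results of these data known. From each list at most the 4 genes with the highest mean CPM were named, plus any called against most of its list, plus those said to be named after their values were seen. Like genes were the 3 with the highest r for each member with at least 10 CPM in its highest condition. Exon lengths and coordinates are from GENCODE M21. Of the genes the rule allows, 1 is not reported here.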

Additional observations from a re-analysis of the deposited data

How the results depend on the processing

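With 2 libraries a condition, the calls on members with few counts were the least stable. The values below add to those given beside the results, and the cause was not tested except where fewer libraries or genes entered by construction. Of 784 values of single members under the alternatives, 727 had the same direction and side of the limits.

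The number of members called in lung against P0 Emcn- was 2, with 0 in a fit of only the compared groups and 0 to 3 when a library was left out. In P1 against P0 Emcn- the 0 became 1 with DESeq2 or no filter and 0 to 1 without a library, and in MSC against P0 Emcn- it became 1 without the fold limit. For MSC against P1 to P3 the 1 became 2 with DESeq2 or no filter, 3 without the fold limit, 0 with the replicate block or only the compared groups, and 0 to 2 without a library. For lung against P0 Emcn+ the 1 became 1 to 2 without a library. Members rising over passages were 1 to 2 without a library. The replicate block changed no other call of a member.

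Over all genes, P3 against P1 gave 43 calls, 303 with DESeq2, 170 with no filter, 106 with the replicate block, 153 with only the compared groups and 0 to 78 without a library. Without the fold limit the counts were 6609 for P0 Emcn+ against P0 Emcn-, 7209 for lung against P0 Emcn+, 3387 for P1 against P0, 6853 for MSC against P0 Emcn- and 6206 for MSC against P1 to P3. With only the compared groups they were 145 for lung against P0 Emcn-, 968 for P1 against P0 and 2396 for MSC against P0 Emcn-. Without a library they ran from 406 to 776 for lung against P0 Emcn- and from 805 to 2196 for P1 against P0. The passage slope gave 3706 genes, 2061 without the batch term (no replicate block) and 97 to 4665 without a library.

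Signs changed only for log2 values that were not called. With DESeq2, Selp was 0.0081 in P1 against P0 and Icam2 was 0.15 in MSC against P0 Emcn-. With the replicate block, Icam1 was -0.025 in P0 Emcn+ against P0 Emcn- and -0.053 in P1 against P0, and Icam2 was 0.27 in MSC against P0 Emcn-, where it was 0.027 with only the compared groups. When a library was left out, Icam1 ran from -0.80 to 0.85 in P0 Emcn+ against P0 Emcn- and Icam2 from -0.22 to 4.06 in lung against P0 Emcn-. In lung against P0 Emcn+, Sele ran from -2.31 to 0.71, Selp from -2.23 to 1.25 and Vcam1 from -0.046 to 1.18. In P1 against P0, Sele ran from -0.17 to 4.08, Selp from -0.48 to 1.19, Icam1 from -0.025 to 0.087 and Vcam1 from -0.29 to 0.045. Icam2 ran from -0.75 to 1.61 in P3 against P1 and from -3.79 to 3.25 in MSC against P0 Emcn-. Sele ran from -0.31 to 6.18 in MSC against P0 Emcn- and from -2.13 to 2.06 in MSC against P1 to P3. A lone library was assumed to vary like the other groups.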
